A study of Mus musculus with 12 samples.

Results

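The integrin and laminin subunit genes were followed through all 12 libraries of sorted fetal liver (FL) cells. Members were chosen by name alone: every gene of the count tables whose symbol is that of an integrin α subunit, an integrin β subunit, or a laminin α, β, or γ chain. This gave 37 names (18 integrin α, 8 integrin β, and 11 laminin) among 38127 rows, carried by 38 identifiers because *Itgam* is listed 2 times. The naming rule itself uses no measured value.

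All cells came from C57BL/6 embryos, lacked Ter119 and CD45 at the surface, and were sorted from dissociated liver, and the labels name no treatment and no altered allele. P2 cells were the CD54-CD31-Kit+CD24+ fraction at embryonic day (E) 14.5, a fetal erythroid progenitor. CD324+ cells were sorted at E14.5 as CD54+CD31-, which the study uses as the epithelial, hepatoblast-containing fraction, and CD31+ cells as CD54+CD31+, the endothelial fraction. The fourth group was CD54+CD31- cells at E18.5. Each group held 3 libraries, which the study describes as independent litters at E14.5. CD54 (the product of *Icam1*), CD31, Kit, and CD24 set the gates and are no findings here. CD51 (the integrin αV protein) is not named in the labels of the sequenced populations. The study's flow cytometry, however, divides cells by Kit and CD24 only after leaving out CD51+ cells. Whether the sequenced P2 cells were gated so is not stated, and *Itgav* in P2 cells is given with that limit.

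Integrins are membrane receptors made of 1 α and 1 β subunit, and the pair decides whether a cell binds fibronectin, vitronectin, collagen, laminin, or a counter-receptor on another cell. Laminins are secreted trimers of an α, a β, and a γ chain and form the scaffold of basement membranes, to which epithelial and endothelial cells attach through integrins. In FL, erythroid progenitors mature against macrophages and stroma through integrins of the α4 and α5 types, hepatoblasts sit in a sparse matrix, and endothelium makes its own laminins.

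Total counts per library ranged from 40714017 to 64368883, and levels are given as CPM (counts per 1000000 of the TMM-scaled library size). Marker genes followed the labels at E14.5: the summed level of 16 erythroid markers was 3811 to 4123 CPM in P2 cells and at most 1431 CPM elsewhere, with *Alas2* listed at 0 in every library, that of 16 hepatoblast markers was 79718 to 91734 CPM in CD324+ cells, and that of 18 endothelial markers was 14407 to 15247 CPM in CD31+ cells. P2 replicate 2 stood apart by its endothelial markers, which summed to 654 CPM against 123 and 193 CPM in the other P2 libraries, and 15 of the 18 passed as higher in P2 cells than in CD324+ cells (sums of 121 to 145 CPM). The E18.5 libraries went partly against their label. Of 14 lung epithelium markers 13 were higher than in E14.5 CD54+CD31- cells, and their sum was 22947, 10376, and 10550 CPM in E18.5 replicates 1, 2, and 3 against 255 CPM at most in the E14.5 libraries, where *Nkx2-1* was at 0 in CD324+ cells. The hepatoblast sum was 6818 CPM in E18.5 replicate 1 and 46970 and 61103 CPM in the other E18.5 libraries. In bulk libraries such as these, more cells of a type and more RNA per cell cannot be told apart.

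The sequences upstream of 4 members are printed because each stands for 1 population: *Itga4* was highest in P2 cells, *Itgb5* in CD324+ cells, *Itga2* in CD31+ cells, and *Lama5* in E18.5 cells. Each is the 250 bases before the RefSeq start (GRCm38.p6), 5′ to 3′ on the gene's strand, and none of these bases lies in an annotated exon. Capitals mark the letters CACCC or their reverse complement, the core of the box bound by Krüppel-like factors.
*Itga4*, chr2:79255176-79255425, plus strand: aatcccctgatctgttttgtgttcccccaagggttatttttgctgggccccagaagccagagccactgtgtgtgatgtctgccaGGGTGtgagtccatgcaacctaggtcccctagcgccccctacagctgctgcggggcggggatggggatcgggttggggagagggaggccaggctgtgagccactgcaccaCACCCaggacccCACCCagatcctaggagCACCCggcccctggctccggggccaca
*Itgb5*, chr16:33829415-33829664, plus strand: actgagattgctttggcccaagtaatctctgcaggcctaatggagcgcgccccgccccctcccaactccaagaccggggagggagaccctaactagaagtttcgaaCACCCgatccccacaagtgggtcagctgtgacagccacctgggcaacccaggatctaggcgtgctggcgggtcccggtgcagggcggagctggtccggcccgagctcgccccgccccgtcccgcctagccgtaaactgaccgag
*Itga2*, chr13:114932101-114932350, minus strand: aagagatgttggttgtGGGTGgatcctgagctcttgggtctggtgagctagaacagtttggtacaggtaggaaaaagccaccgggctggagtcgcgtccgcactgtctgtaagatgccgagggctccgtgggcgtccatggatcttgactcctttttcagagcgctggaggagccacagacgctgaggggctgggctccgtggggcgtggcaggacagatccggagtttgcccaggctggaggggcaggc
*Lama5*, chr2:180225860-180226109, minus strand: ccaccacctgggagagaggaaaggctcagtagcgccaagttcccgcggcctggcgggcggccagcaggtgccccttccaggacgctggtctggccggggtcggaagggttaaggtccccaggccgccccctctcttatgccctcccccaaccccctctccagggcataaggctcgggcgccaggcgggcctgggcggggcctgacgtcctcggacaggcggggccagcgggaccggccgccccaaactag

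The *Itga4* window held CACCC at 4 places (3 forward and 1 reverse), the *Itgb5* and *Itga2* windows at 1 place each, and the *Lama5* window at none. Of 32851 promoter windows of the same length searched on both strands, 52% held CACCC at least 1 time, as did 16 of the 26 windows of 23 members. GATAA, the letters of the GATA factor site, was in none of these 4 windows, in 2 of the 26 member windows, and in 22.6% of all windows. TGACTCA (the AP-1 site) was in 1 member window and 4.46% of all, and GGAAGT (an ETS core) in 8 member windows and 19.7% of all. Each motif was searched apart from the others, and a match or its absence describes these windows only.

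The members fell into several patterns at E14.5. Of the 32 identifiers with enough counts to test, 15 were above both other populations in CD31+ cells, 6 in CD324+ cells (*Itga3*, *Itgal*, *Itgav*, *Itgb5*, *Lama1*, and *Lamb3*), and 1 in P2 cells (*Itga4*), by edgeR's quasi-likelihood test at a Benjamini-Hochberg adjusted p below 0.05 in both comparisons. P2 cells were below both others for 17 members, and for 10 no population was above both others. *Itga7*, *Itgad*, *Itgax*, *Itgb6*, and both *Itgam* identifiers had too few counts at E14.5 for a test.

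**Figure D1:**
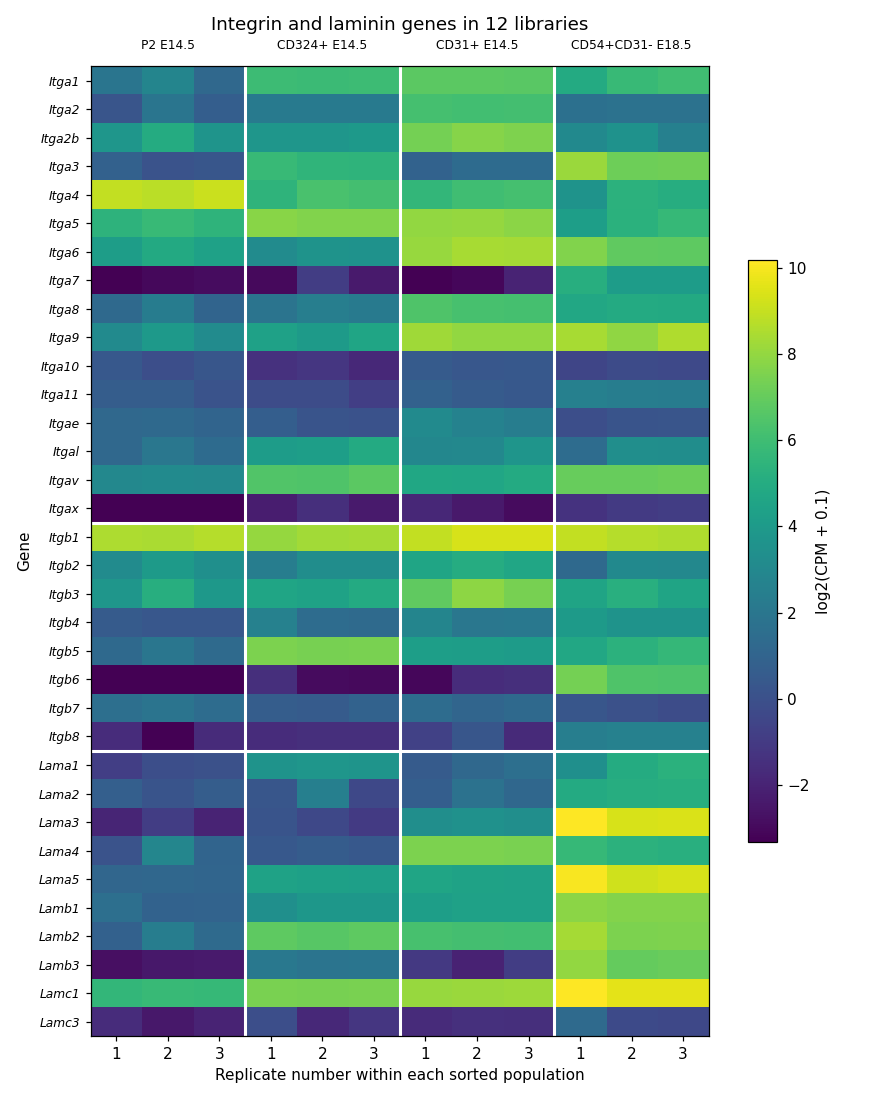
Level of 34 members in 12 libraries as a color, log2(CPM + 0.1), with genes in rows (integrin α, integrin β, laminin, divided by white lines) and libraries in columns by population; *Itgam*, *Itgad*, and 1 more member are left out. *Itga4* is brightest in the 3 P2 columns (445 to 553 CPM), and *Lama3*, *Lama5*, *Lamc1*, *Lamb3*, and *Itgb6* are brightest at E18.5.

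Between P2 and CD324+ cells 24 of 32 tested members passed the test, 6 higher and 18 lower in P2 cells, where 70% of all 15461 genes passed (33.8% higher and 36.1% lower). The share that passed was close to that background, and the members' median log2 fold change was -1.29 against -0.011 over all genes. Between P2 and CD31+ cells 26 of 32 passed, 1 higher and 25 lower, with a background of 73.7% (34.3% higher and 39.4% lower). The medians there were -2.06 for members and -0.13 for all genes. With the authors' own scaling factors the median of all genes moved by -0.26 and -0.37, the higher share of all calls moved from 48.3% to 38.2% and from 46.6% to 33.9%, and the members' splits became 4 higher to 18 lower and 1 higher to 26 lower. CD31+ against CD324+ cells gave 18 members higher and 6 lower in CD31+ cells of 32 tested, with 65.6% of all genes passing (31.7% higher and 34% lower) and medians of 0.69 for members and -0.031 for all genes. The 3 comparisons share libraries, so their values stand side by side and are no independent support for each other.

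**Figure D2:**
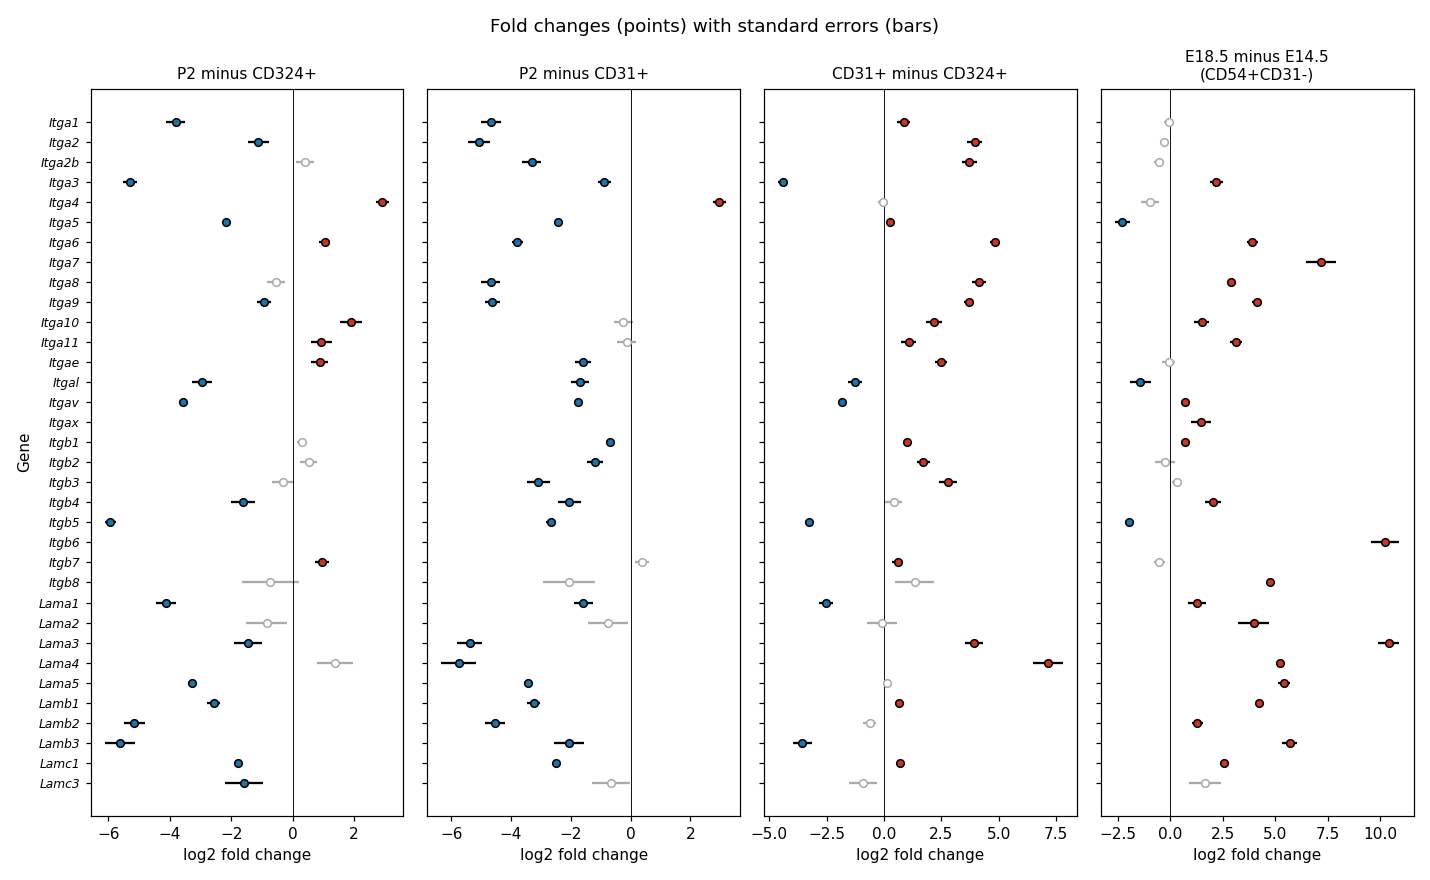
Log2 fold change of each tested member drawn (point) with its standard error (bar) in the 4 comparisons; red points passed the test as higher in the first-named group, blue as lower, and open grey points did not pass. *Itga4* is the only red point against CD31+ cells, and the points furthest right at E18.5 are *Lama3* (10.41) and *Itgb6* (10.24).

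*Itga4*, the α4 subunit that binds VCAM-1 and fibronectin on erythroid and lymphoid progenitors, was the member that marked P2 cells. Its level in P2 cells was 481, 445, and 553 CPM in replicates 1, 2, and 3. CD324+ libraries held 44.2, 77.5, and 70.2 CPM, and CD31+ libraries 48.2, 66.3, and 73.9 CPM. The lowest P2 library was far above the highest of the other 6, and these 6 overlapped. Compared with CD324+ cells, *Itga4* was higher in P2 cells (log2 fold change 2.93 ± 0.22, edgeR adjusted p = 9.16e-07) and compared with CD31+ cells likewise (log2 fold change 2.96 ± 0.22, edgeR adjusted p = 9.12e-07). All values after ± beside a fold change are standard errors. CD31+ and CD324+ cells did not differ in it beyond their spread (log2 fold change -0.031 ± 0.21, edgeR adjusted p = 0.902). *Itga4* is among the genes the study listed as raised in P2 cells on these same samples, so its direction is not independent evidence. Its exons lie on chr2:79255426-79333123 (plus strand) and share 1124 bases with those of *Cerkl* on the other strand, which was at 13.8 CPM or less in every library.

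Of the β partners of α4, *Itgb1* led the summed RPKM (CPM per kb of exon) of β genes in every library, and *Itgb7* was 1.31% of it at most. *Itgb1*, the common β1 subunit, stood at 369, 346, and 403 CPM in P2, 259.7, 313, and 326 CPM in CD324+, and 480.4, 659.9, and 665 CPM in CD31+ libraries. P2 and CD324+ libraries did not overlap, but the difference did not pass (log2 fold change 0.30 ± 0.14, edgeR adjusted p = 0.0774), although it did with only these 6 libraries fitted (edgeR adjusted p = 0.0259). CD31+ cells were the highest: P2 cells were lower (log2 fold change -0.70 ± 0.14, edgeR adjusted p = 0.000934), and CD31+ cells were above CD324+ cells (log2 fold change 1.00 ± 0.14, edgeR adjusted p = 0.000105). *Itgb7*, which pairs with α4 and αE for mucosal homing, was at 2.96, 3.58, and 2.66 CPM in P2 and 1.47, 1.35, and 1.8 CPM in CD324+ libraries, and was higher in P2 cells (log2 fold change 0.97 ± 0.23, edgeR adjusted p = 0.00366). Against CD31+ cells (2.64, 2.01, and 2.36 CPM) its difference did not pass (log2 fold change 0.38 ± 0.23, edgeR adjusted p = 0.152). *Itgb7* in CD31+ against CD324+ cells (log2 fold change 0.59 ± 0.23, edgeR adjusted p = 0.0458) is a marginal call: it was lost with the replicate number as a block (log2 fold change 0.59, edgeR adjusted p = 0.0671) and without any 1 of 5 of the 6 libraries.

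Subunits of the receptors for the RGD motif of fibronectin and vitronectin split by population. *Itga5*, the fibronectin receptor α5, was at 41.5, 53.6, and 43.8 CPM in P2, 218, 199, and 195 CPM in CD324+, and 256, 259.5, and 230.0 CPM in CD31+ libraries. P2 cells were clearly below both (log2 fold change -2.16 ± 0.11, edgeR adjusted p = 5.9e-08, against CD324+ cells). CD31+ and CD324+ libraries did not overlap, but their small difference (log2 fold change 0.28 ± 0.11, edgeR adjusted p = 0.0452) was lost without any 1 of 5 of the 6 libraries, with adjusted p up to 0.277, and also without a filter on low counts (0.126) and with all 12 libraries in 1 fit (0.388).

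*Itgb5*, the vitronectin receptor β5, marked CD324+ cells. It was at 179, 169, and 175 CPM there, 18.9, 18.3, and 16.8 CPM in CD31+, and 2.39, 3.85, and 2.43 CPM in P2 libraries, with no overlap between any populations. P2 cells were lower than CD324+ cells (log2 fold change -5.93 ± 0.19, edgeR adjusted p = 1.26e-09), and so were CD31+ cells (log2 fold change -3.28 ± 0.16, edgeR adjusted p = 3.98e-08). Its partner *Itgav* (αV) followed the same order, at 90.6, 87.3, and 109.9 CPM in CD324+, 26.7, 24.9, and 29.9 CPM in CD31+, and 7.74, 8.55, and 8.09 CPM in P2 libraries. *Itgav* was lower in P2 than in CD324+ cells (log2 fold change -3.58 ± 0.12, edgeR adjusted p = 2.35e-09) and lower in CD31+ than in CD324+ cells (log2 fold change -1.83 ± 0.11, edgeR adjusted p = 2.22e-07). The P2 value carries the limit given above, that P2 cells may have been gated as CD51-. *Itgb8*, which with αV activates latent TGF-β, was at most 1.14 CPM at E14.5 and passed no comparison there, although P2 cells were lower than CD31+ cells without CD31+ replicate 3 (edgeR adjusted p = 0.0334) and under 4 other settings, the authors' factors and DESeq2 among them (0.0268 to 0.0498).

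*Itga2b* and *Itgb3*, the αIIb and β3 subunits of the platelet fibrinogen receptor, were highest in CD31+ cells. *Itga2b* was at 165, 212, and 187 CPM in CD31+, 13.5, 13.5, and 15.5 CPM in CD324+, and 13.7, 31.2, and 12.6 CPM in P2 libraries. *Itgb3* was at 118, 237, and 172 CPM in CD31+, 24.4, 21.8, and 29.8 CPM in CD324+, and 13.4, 34.8, and 14.4 CPM in P2 libraries. Both were higher in CD31+ than in CD324+ cells (*Itga2b*, log2 fold change 3.72 ± 0.32, edgeR adjusted p = 2.88e-06). The value for *Itgb3* was log2 fold change 2.78 ± 0.38, edgeR adjusted p = 9.22e-05. Within the P2 group replicate 2 was the high library for both genes. Without it *Itga2b* in P2 against CD324+ cells turned from 0.41 to -0.12 (edgeR adjusted p = 0.429), not called either way, and *Itgb3* went from -0.30 to -0.88 (edgeR adjusted p = 0.008), a call as lower. Megakaryocyte markers moved with both genes: all 12 were higher in CD31+ than in CD324+ cells, none at 0, with sums of 447 to 808 CPM in CD31+, 65.6 to 84.2 CPM in CD324+, and 60.8 to 135 CPM in P2 libraries, where replicate 2 was the highest. Their part in the result was not tested.

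*Itga8*, the nephronectin receptor α8, was at 86.2, 76.3, and 74.1 CPM in CD31+, 3.51, 5.38, and 4.42 CPM in CD324+, and 2.32, 5, and 1.96 CPM in P2 libraries. CD31+ cells were above CD324+ cells (log2 fold change 4.15 ± 0.31, edgeR adjusted p = 1.04e-06) and P2 cells were below CD31+ cells (log2 fold change -4.68 ± 0.32, edgeR adjusted p = 4.82e-07). P2 and CD324+ libraries overlapped (log2 fold change -0.54, edgeR adjusted p = 0.144), and without P2 replicate 2 the value became -1.06 (edgeR adjusted p = 0.000364), a call as lower.

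The laminin-binding α subunits were split between CD324+ and CD31+ cells. *Itga3* (α3) was at 54.4, 46.1, and 44.5 CPM in CD324+, 1.81, 2.55, and 2.55 CPM in CD31+, and 1.7, 0.978, and 1.12 CPM in P2 libraries. It was lower in P2 (log2 fold change -5.28 ± 0.23, edgeR adjusted p = 1.26e-08) and in CD31+ cells (log2 fold change -4.40 ± 0.21, edgeR adjusted p = 3.69e-08) than in CD324+ cells. *Itga6* (α6) had the opposite pattern, with 270.1, 343, and 323 CPM in CD31+, 9.05, 12, and 11.6 CPM in CD324+, and 18.3, 29.3, and 20.9 CPM in P2 libraries. It was higher in CD31+ than in CD324+ cells (log2 fold change 4.84 ± 0.21, edgeR adjusted p = 1.37e-08), and higher in P2 than in CD324+ cells (log2 fold change 1.05 ± 0.18, edgeR adjusted p = 0.000403). *Itgb4*, the hemidesmosome partner of α6, was at most 6.95 CPM at E14.5 and lower in P2 cells (log2 fold change -1.62 ± 0.39, edgeR adjusted p = 0.00371 against CD324+ cells). CD31+ and CD324+ cells overlapped in it, and among the alternatives run it passed as higher in CD31+ cells only without CD324+ replicate 1 (0.97 (edgeR adjusted p = 0.0183)).

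The collagen receptor subunits did not share 1 pattern. *Itga1* (α1) was at 108, 111, and 106 CPM in CD31+, 60.3, 59, and 59.7 CPM in CD324+, and 3.7, 6.99, and 2.25 CPM in P2 libraries. P2 cells were below CD324+ cells (log2 fold change -3.81 ± 0.32, edgeR adjusted p = 1.81e-06) and below CD31+ cells (log2 fold change -4.67 ± 0.33, edgeR adjusted p = 5.86e-07). The step from CD324+ to CD31+ cells (log2 fold change 0.86 ± 0.28, edgeR adjusted p = 0.0202) was lost without any 1 of 5 of the 6 libraries, with adjusted p up to 0.0734. CD31+ and CD324+ libraries did not overlap in *Itga1*. Over all alternatives run (edgeR or DESeq2) its log2 fold change was 0.76 to 0.96, with adjusted p from 7.99e-06 to 0.0734. *Itga2* (α2) was at 73.4, 67.5, and 69.7 CPM in CD31+, 4.47, 4.56, and 4.49 CPM in CD324+, and 1.08, 3.68, and 1.52 CPM in P2 libraries. It was higher in CD31+ than in CD324+ cells (log2 fold change 3.95 ± 0.34, edgeR adjusted p = 2.52e-06) and lower in P2 than in CD31+ cells (log2 fold change -5.07 ± 0.36, edgeR adjusted p = 5.7e-07). Without P2 replicate 2, the high P2 library, the latter became -5.74 (edgeR adjusted p = 3.83e-10). P2 against CD324+ cells gave log2 fold change -1.12 ± 0.34, edgeR adjusted p = 0.0131, which was -1.79 (edgeR adjusted p = 1.47e-06) without P2 replicate 2 and -0.92 (edgeR adjusted p = 0.0527), no longer a call, without P2 replicate 3. *Itga10* and *Itga11* stayed under 1.75 CPM in every E14.5 library, and both were lower in CD324+ cells than in the others, with log2 fold changes of 1.92 and 0.94 in P2 and 2.17 and 1.08 in CD31+ cells against CD324+ cells. P2 and CD31+ cells overlapped in both (log2 fold changes of -0.25 and -0.14, edgeR adjusted p = 0.493 and 0.709). For *Itga11* the call in P2 cells was lost with the authors' factors (edgeR adjusted p = 0.108) and without P2 replicate 1, P2 replicate 2, or CD324+ replicate 3 (up to 0.106), and the call in CD31+ cells without CD324+ replicate 3 (0.0664).

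*Itga9*, the α9 subunit that binds tenascin and VCAM-1 and is known from lymphatic valves, was at 306, 249, and 250.4 CPM in CD31+, 20.7, 16.2, and 24.6 CPM in CD324+, and 8.68, 15, and 9.17 CPM in P2 libraries. No populations overlapped, and CD31+ cells were above CD324+ cells (log2 fold change 3.71 ± 0.23, edgeR adjusted p = 2.67e-07) and P2 cells below CD31+ cells (log2 fold change -4.63 ± 0.25, edgeR adjusted p = 1.08e-07).

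Subunits of the leukocyte integrins were detected although CD45+ cells had been depleted. *Itgal* (αL of LFA-1, the receptor for CD54) was at 17.8, 19.2, and 30.7 CPM in CD324+, 7.6, 7.8, and 12.9 CPM in CD31+, and 2.3, 4.02, and 2.56 CPM in P2 libraries. It was lower in P2 than in CD324+ cells (log2 fold change -2.95 ± 0.31, edgeR adjusted p = 1.13e-05) and in CD31+ than in CD324+ cells (log2 fold change -1.26 ± 0.29, edgeR adjusted p = 0.00309). Its partner *Itgb2* (β2) did not follow it, with 24.2, 32.6, and 24.8 CPM in CD31+, 9.03, 16.4, and 10.5 CPM in P2, and 5.15, 9.76, and 9.85 CPM in CD324+ libraries. *Itgb2* was higher in CD31+ than in CD324+ cells (log2 fold change 1.72 ± 0.28, edgeR adjusted p = 0.000338). Summed macrophage markers were at 1368 to 1644 CPM in CD31+, 179 to 318 CPM in CD324+, and 15.8 to 66.0 CPM in P2 libraries (1 of 13 tested higher and 9 lower in CD31+ than in CD324+ cells), and summed granulocyte markers at 157 to 669 CPM in CD31+ and 137 CPM or less elsewhere at E14.5, with *Ly6g* at 0. Their part in the *Itgb2* level was not tested. *Itgae* (αE) was at 8.6, 6.16, and 5.13 CPM in CD31+, 1.56, 1.04, and 0.938 CPM in CD324+, and 2.3, 2.37, and 1.94 CPM in P2 libraries. It was higher in CD31+ than in CD324+ cells (log2 fold change 2.48 ± 0.28, edgeR adjusted p = 2.12e-05), and its call as higher in P2 than in CD324+ cells (log2 fold change 0.88) was lost with the authors' factors (edgeR adjusted p = 0.0874) and without CD324+ replicate 2 or 3 (up to 0.0619). *Itgax* and Both *Itgax* (αX) and *Itgb6* had no count in any P2 library, which allows up to 0.0689, 0.0624, and 0.0578 CPM in replicates 1, 2, and 3 by a floor of 3 counts. The 2 *Itgam* identifiers share most of their exons on 1 strand and had at most 4 counts in any library, a value that the counting of shared reads could set. *Itgad* had at most 9 counts.

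Among the laminin α chains, *Lama4* and, at a lower level, *Lama3* were higher in CD31+ cells than in both other E14.5 populations. *Lama4*, the chain of vascular basement membranes, was at 186, 184, and 178 CPM in CD31+, 1.22, 1.42, and 1.23 CPM in CD324+, and 0.988, 7.28, and 1.94 CPM in P2 libraries. It was higher in CD31+ than in CD324+ cells (log2 fold change 7.14 ± 0.64, edgeR adjusted p = 3.72e-06). P2 replicate 2 was the high P2 library: without it the difference of P2 from CD31+ cells went from -5.75 to -6.94 (edgeR adjusted p = 5.87e-10), and that from CD324+ cells, not called at 1.39 ± 0.60, went to 0.20 (edgeR adjusted p = 0.479). It passed as higher without P2 replicate 1 or 3 (edgeR adjusted p = 0.00433 and 0.035). P2 replicate 2 had the higher endothelial marker sum given above, whose part in its *Lama4* level was not tested.

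*Lama1*, the chain of embryonic basement membranes, was instead a CD324+ gene, at 12.3, 13.3, and 12.7 CPM there, 1.38, 2.3, and 2.96 CPM in CD31+, and 0.459, 0.833, and 0.924 CPM in P2 libraries. It was lower in P2 (log2 fold change -4.12 ± 0.33, edgeR adjusted p = 1.23e-06) and in CD31+ cells (log2 fold change -2.53 ± 0.29, edgeR adjusted p = 2.78e-05) than in CD324+ cells. *Lama5*, the most widespread chain, was at 21.4, 19.9, and 19.2 CPM in CD324+, 24.3, 22, and 21.2 CPM in CD31+, and 2.09, 2.21, and 2 CPM in P2 libraries. CD324+ and CD31+ cells overlapped in *Lama5* and did not differ beyond their spread (log2 fold change 0.15 ± 0.10, edgeR adjusted p = 0.237), while P2 cells were below CD324+ cells (log2 fold change -3.28 ± 0.12, edgeR adjusted p = 3.4e-09). *Lama3* reached 9.97, 11.5, and 10.1 CPM in CD31+ cells and at most 1.02 CPM in the other E14.5 libraries, and was higher in CD31+ than in CD324+ cells (log2 fold change 3.92 ± 0.39, edgeR adjusted p = 8.15e-06). In P2 cells *Lama3* was lower than in CD31+ cells (log2 fold change -5.38 ± 0.43, edgeR adjusted p = 1.27e-06), and the value was -6.04 (edgeR adjusted p = 1.51e-07) without P2 replicate 2. Against CD324+ cells it was lower too (log2 fold change -1.46 ± 0.45, edgeR adjusted p = 0.0148), with -2.12 (edgeR adjusted p = 0.00119) without P2 replicate 2 and no call without P2 replicate 3 (edgeR adjusted p = 0.0563) or CD324+ replicate 1 (0.0741). *Lama2* was at most 5.57 CPM, a value of CD324+ replicate 2 only. Without that library *Lama2* was higher in CD31+ than in CD324+ cells, by 1.28 (edgeR adjusted p = 0.0292), and with it the difference was not called.

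In RPKM *Lamb2* was the highest β chain and *Lamc1* the highest γ chain in CD324+ and CD31+ cells. *Lamb2* (β2) was at 113, 102, and 112 CPM in CD324+, 75.4, 71.1, and 67.2 CPM in CD31+, and 1.7, 5.14, and 2.45 CPM in P2 libraries. It was lower in P2 than in CD324+ cells (log2 fold change -5.15 ± 0.33, edgeR adjusted p = 2.53e-07), and the CD31+ libraries lay below the CD324+ libraries without passing the test (log2 fold change -0.62 ± 0.27, edgeR adjusted p = 0.0669), which they did with only these 6 libraries fitted (edgeR adjusted p = 0.000403). *Lamc1* (γ1), shared by most trimers, was at 271, 287, and 298 CPM in CD31+, 176, 170.1, and 175 CPM in CD324+, and 48.8, 53.9, and 52.1 CPM in P2 libraries. It fell in that order without overlap and was lower in P2 than in CD324+ cells (log2 fold change -1.77 ± 0.08, edgeR adjusted p = 1.69e-08). *Lamb1* (β1) reached 18.7, 21.2, and 21.2 CPM in CD31+, 10.4, 14.1, and 13.9 CPM in CD324+, and 2.99, 1.77, and 1.83 CPM in P2 libraries. Its difference between CD31+ and CD324+ cells (log2 fold change 0.67 ± 0.19, edgeR adjusted p = 0.0119) was lost without CD31+ replicate 2, CD31+ replicate 3, or CD324+ replicate 1, with adjusted p up to 0.06. *Lamb3* was at 4.19, 3.49, and 3.75 CPM in CD324+ cells and under 0.5 CPM in the other E14.5 libraries. *Lamc3* was at 0.849 CPM or less at E14.5. It was called as lower in P2 than in CD324+ cells (log2 fold change -1.59 ± 0.63, edgeR adjusted p = 0.0442), but not without P2 replicate 2, P2 replicate 3, CD324+ replicate 1, or CD324+ replicate 3 (edgeR adjusted p up to 0.287).

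To compare genes with each other, levels were divided by exon length (RPKM, as above), and each gene's share of the summed RPKM of its pool was taken in every library. These shares describe mRNA and carry no test. In P2 cells *Itga4* made up 66.8, 55.1, and 69.3% of the α pool and *Itgb1* 92.6, 86, and 92.8% of the β pool in replicates 1, 2, and 3. A single gene held most of each pool, with replicate 2 the lowest in both. CD324+ cells were led by *Itga5*, with 52.9% ± 3.05 (SD, n = 3) of the α pool, and their β pool was divided between *Itgb1* (56.1% ± 3.15) and *Itgb5* (37.7% ± 3.33). With the exon union as length, *Itga5* led the α pool in every CD31+ library but held less of it than in CD324+ cells. Its share was 26.3% ± 1.26, that of *Itga9* 18.2% ± 2.44, *Itga6* 18% ± 1.96, and *Itga2b* 18% ± 1.86. That lead depends on the length: the exon union of *Itga6* is 9025 bases, but its longest transcript is 4310 bases, against 4415 bases for *Itga5*. In CPM *Itga6* was above *Itga5* in every CD31+ library. The summed α RPKM was 55.5 ± 3.4 in P2, 78.2 ± 1.93 in CD324+, and 192 ± 5.87 in CD31+ cells.

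**Figure D3:**
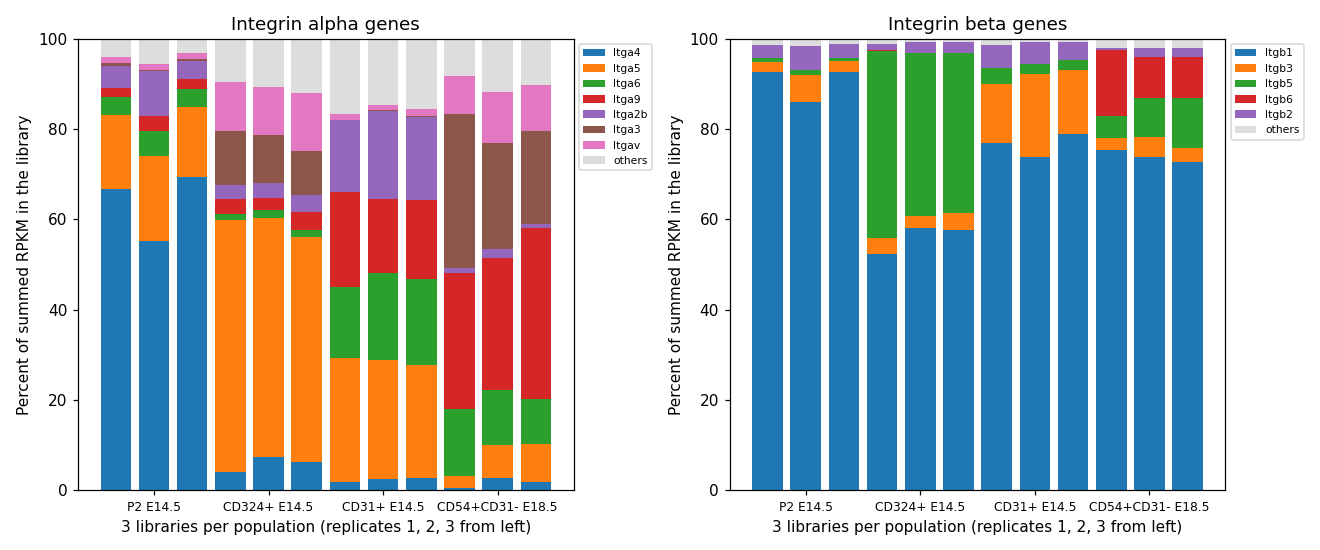
Share of each gene in the summed RPKM of integrin α genes (left) and integrin β genes (right), in percent, with 1 bar per library. *Itga4* fills 55.1% to 69.3% of the α bars of P2 cells, *Itga5* 49.8% to 55.9% of those of CD324+ cells, and *Itgb1* is the largest share of every β bar.

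For each likely heterodimer the RPKM of the scarcer subunit in each library was taken as the level that could limit the pair. In P2 cells α4β1 led at 35.3 ± 3.91 RPKM (mean ± SD, n = 3), followed by α5β1 at 9.39 ± 1.31 RPKM. With the exon union as length, αIIbβ3 at 3.43 ± 1.98 RPKM and α6β1 at 2.53 ± 0.641 RPKM came next and overlapped. The αIIbβ3 value was 5.72 RPKM in P2 replicate 2, and 2.27 and 2.31 RPKM in replicates 1 and 3. The leading pair of P2 cells was limited by *Itga4*, since *Itgb1* was at 91.3 ± 7.05 RPKM. CD324+ cells were led by α5β1 at 41.3 ± 2.53 RPKM, and αVβ1 and αVβ5 were both limited by *Itgav* at 8.93 ± 1.13 RPKM, while *Itgb5* itself was at 49.1 ± 1.43 RPKM. In CD31+ cells, with the exon union as length, α5β1 at 50.4 ± 3.29 RPKM was followed by α9β1 at 34.9 ± 4.24 RPKM, α6β1 at 34.6 ± 4.19 RPKM, and αIIbβ3 at 29.3 ± 9.43 RPKM. The last 3 lay within their spread of one another, without a test. The α4β1 pair was at 4.58 ± 1.25 RPKM in CD324+ cells.

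The same measure for the laminin trimers, named by their α, β, and γ chains, put laminin α4β2γ1 first in CD31+ cells at 11.7 ± 0.675 RPKM, limited by *Lamb2*. There *Lama4* held 82% ± 0.364 of the laminin α RPKM. In CD324+ cells every trimer with a γ1 chain was limited to low values by its α or β1 chain. Laminin α5β2γ1 was at 1.77 ± 0.0989 RPKM and laminin α1β2γ1 at 1.32 ± 0.0545 RPKM, although *Lamb2* and *Lamc1* stood at 17.9 ± 0.996 and 21 ± 0.379 RPKM. *Lamc1* in P2 cells, at 6.24 ± 0.318 RPKM, had no α or β chain above 0.509 ± 0.298 RPKM (*Lamb2*) beside it. No trimer in P2 cells exceeded 0.282 ± 0.281 RPKM, which was the mean of laminin α4β2γ1 and was highest in replicate 2.

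CD54+CD31- libraries at E18.5 had more laminin mRNA than those at E14.5. Of 35 tested members 26 passed, 23 higher and 3 lower at E18.5, where 69.4% of all 15863 genes passed (35.9% higher and 33.5% lower). Of the 11 laminin genes 10 were higher. Their median log2 fold change was 4.24, and that of all genes 0.033. Without E18.5 replicate 1, the library that stood apart, 23 members were higher and 4 lower. With the authors' factors the median of all genes moved by 0.23 and the counts were 24 and 2. With all 12 libraries in 1 fit the counts were 22 and 5.

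*Lama3* and *Lamb3*, the α3 and β3 chains of epithelial laminins, both rose. *Lama3* was at 1116, 666, and 685 CPM at E18.5 and 1.02, 0.661, and 0.395 CPM at E14.5 (log2 fold change 10.41 ± 0.51, edgeR adjusted p = 1.91e-05). *Lamb3* was at 255, 127, and 136 CPM at E18.5 against 4.19, 3.49, and 3.75 CPM (log2 fold change 5.69 ± 0.35, edgeR adjusted p = 3.3e-05). In both genes E18.5 replicate 1 was the highest, and without it the log2 fold changes were 10.12 and 5.28, each still a call. *Lama5* was at 1043, 594, and 663 CPM at E18.5 (log2 fold change 5.43 ± 0.29, edgeR adjusted p = 2.24e-05), *Lamc1* at 1154, 778, and 794 CPM (log2 fold change 2.58 ± 0.20, edgeR adjusted p = 6.97e-05), and *Lamb1* at 224, 206, and 206 CPM (log2 fold change 4.24 ± 0.15, edgeR adjusted p = 1.33e-05). *Lamb2*, already high at E14.5, was at 328, 181, and 189.9 CPM (log2 fold change 1.29 ± 0.25, edgeR adjusted p = 0.00365). *Lama4* reached 52.8, 40.5, and 36 CPM (log2 fold change 5.25 ± 0.21, edgeR adjusted p = 1.38e-05).

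*Lama1* and *Lama2* also rose, *Lama1* less securely. *Lama1* was at 10.4, 31.5, and 39.3 CPM and overlapped with E14.5 because E18.5 replicate 1 was its lowest library (log2 fold change 1.26 ± 0.43, edgeR adjusted p = 0.0364). It was 1.64 (edgeR adjusted p = 3.84e-06) without that library, and lost its call without any 1 of the other 5, with adjusted p up to 0.11. *Lama2* was at 30.1, 34.3, and 35.3 CPM (log2 fold change 3.97 ± 0.75, edgeR adjusted p = 0.00295), and 5.37 (edgeR adjusted p = 0.000237) without E14.5 replicate 2. *Lamc3* did not pass (log2 fold change 1.63 ± 0.76, edgeR adjusted p = 0.0964). Its value was 2.38 (edgeR adjusted p = 0.0495) without E14.5 replicate 1 and 0.71 (edgeR adjusted p = 0.317) without E18.5 replicate 1.

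In RPKM, *Lama3* held 50.1% ± 1.37 and *Lama5* 44% ± 1.42 of the laminin α pool at E18.5. Laminin α3β2γ1 and laminin α5β2γ1 were both limited by *Lamb2* at 38.3 ± 13.6 RPKM, and *Lamb3* was at 26.2 ± 10.8 RPKM. The summed laminin RPKM was 528, 322, and 336 in the E18.5 libraries, 45, 43, and 44.9 in E14.5 CD324+ libraries, and 65.9, 67.3, and 67.3 in CD31+ libraries. The E18.5 libraries were above all others, and replicate 1 was the highest.

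**Figure D4:**
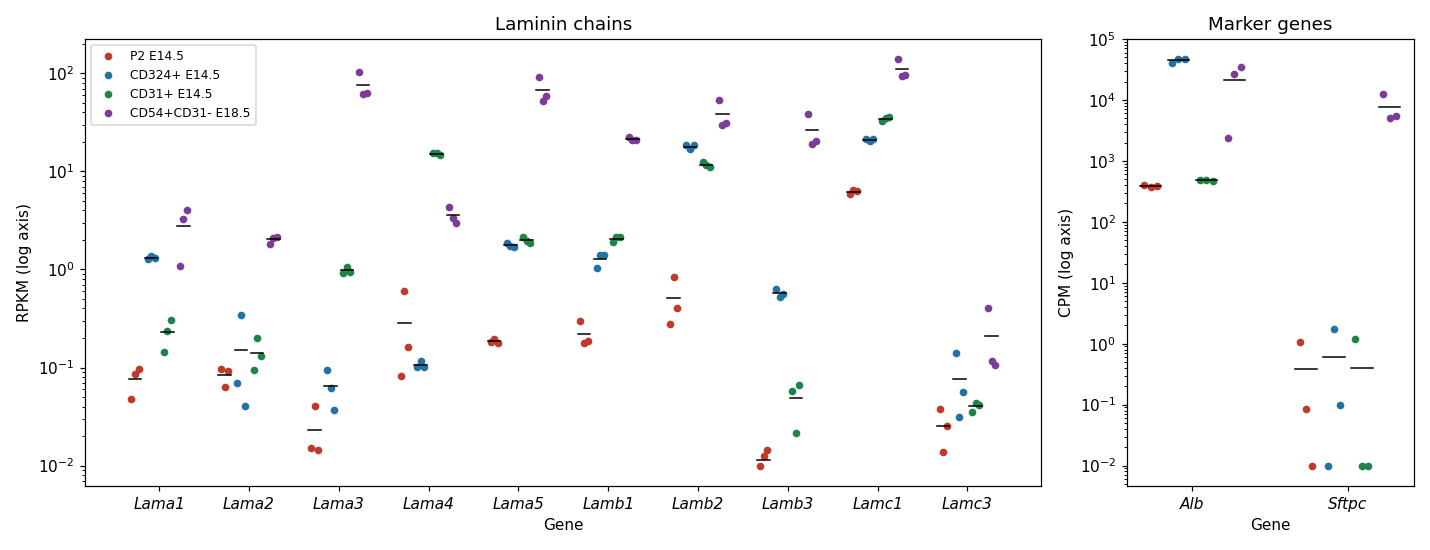
RPKM of 10 laminin chains (left, log axis) and CPM of *Alb* and *Sftpc* (right, log axis) in each library (points) with the mean of 3 libraries (lines); values below 0.01 are drawn at 0.01. The E18.5 points of *Lama3* and *Lama5* lie above those of the E14.5 populations, E18.5 replicate 1 is the highest in both and in *Sftpc* (12377 CPM), and it is the lowest E18.5 library in *Alb* (2405 CPM).

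Several integrin genes rose beside the laminins. *Itgb6*, the epithelial β6 subunit that with αV activates TGF-β, was at 164, 86.7, and 84.1 CPM at E18.5 and had 9, 1, and 1 counts at E14.5 (log2 fold change 10.24 ± 0.67, edgeR adjusted p = 3.88e-05). With so few counts at E14.5 the size of that change rests on replicate 1 there, and it was 12.03 (edgeR adjusted p = 0.000269) without it. *Itga3*, which binds laminins with an α3 or α5 chain, was at 285, 145, and 149 CPM against 54.4, 46.1, and 44.5 CPM (log2 fold change 2.19 ± 0.30, edgeR adjusted p = 0.000733). *Itga6* was at 197, 119, and 115 CPM against 9.05, 12, and 11.6 CPM (log2 fold change 3.92 ± 0.27, edgeR adjusted p = 4.36e-05), and *Itgb4* at 16.3, 12.2, and 12 CPM (log2 fold change 2.04 ± 0.40, edgeR adjusted p = 0.00357). All 3 laminin-binding α genes moved up. *Itga7*, known from muscle, was at 35.2, 17.3, and 17.3 CPM with 1, 14, and 4 counts at E14.5 (log2 fold change 7.19 ± 0.71, edgeR adjusted p = 0.000166, and 8.59 (edgeR adjusted p = 0.000486) without E14.5 replicate 2). *Itga9* was at 338, 243, and 373 CPM against 20.7, 16.2, and 24.6 CPM (log2 fold change 4.15 ± 0.24, edgeR adjusted p = 2.74e-05). *Itga8* was at 27.1, 30.8, and 29.4 CPM (log2 fold change 2.90 ± 0.16, edgeR adjusted p = 2.51e-05) and *Itgb8* at 5.36, 6.08, and 5.97 CPM (log2 fold change 4.76 ± 0.20, edgeR adjusted p = 1.55e-05). *Itgav* (log2 fold change 0.69 ± 0.11, edgeR adjusted p = 0.00135) and *Itgb1* (log2 fold change 0.69 ± 0.15, edgeR adjusted p = 0.00514) rose less.

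The 3 members that fell, *Itga5*, *Itgb5*, and *Itgal*, include 2 that were highest in CD324+ cells at E14.5. *Itga5* was at 18.5, 39.3, and 52.5 CPM at E18.5 against 218, 199, and 195 CPM (log2 fold change -2.29 ± 0.35, edgeR adjusted p = 0.00116). *Itgb5* was at 27.1, 41.4, and 49.8 CPM against 179, 169, and 175 CPM (log2 fold change -1.97 ± 0.21, edgeR adjusted p = 0.000238). *Itgal* was at 2.6, 9.94, and 9.65 CPM (log2 fold change -1.43 ± 0.49, edgeR adjusted p = 0.0367) and lost its call without any 1 of the 3 E14.5 libraries, with adjusted p up to 0.127, or with the authors' factors (0.058). *Itga4* was at 11.9, 40.5, and 33.7 CPM, not called (log2 fold change -0.97 ± 0.43, edgeR adjusted p = 0.0841), and -0.61 (edgeR adjusted p = 0.0233) without E18.5 replicate 1. Its difference also passed with DESeq2 (adjusted p = 0.0475) and with all 12 libraries in 1 fit (edgeR adjusted p = 0.0157). The other members without a call were *Itga1*, *Itga2*, *Itga2b*, *Itgae*, *Itgb2*, *Itgb3*, and *Itgb7*, with log2 fold changes from -0.54 to 0.31. Of these, *Itga2b* passed as lower without E18.5 replicate 2 (-0.81 (edgeR adjusted p = 0.0224)), *Itgb7* as lower with all 12 libraries in 1 fit (0.0194), and *Itgb3* as higher with the authors' factors (0.0474). *Itga11* (3.14) and *Itga10* (edgeR adjusted p = 0.00738) rose from low levels, and *Itgax* (1.48, edgeR adjusted p = 0.0278), at 0.375 CPM on average at E18.5, lost its call without any 1 of 4 of the 6 libraries. In RPKM the leading pairs at E18.5 were α9β1 at 41.4 ± 8.74 RPKM and α3β1 at 33.8 ± 13.9 RPKM, which overlapped, and α5β1 fell to the level of *Itga5*, 7.45 ± 3.47 RPKM.

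Other markers moved with these differences. Besides lung epithelium (13 of 14 higher, with *Sftpc* at 12377, 5095, and 5404 CPM), all 8 mesothelial markers were higher at E18.5 (sums of 698 to 1120 CPM against 5.85 to 9.41 CPM), 12 of the 13 tested stellate and mesenchymal markers were higher (4287 to 4509 CPM against 1180 to 1229 CPM, with *Lrat* at 0 in every library), and 17 of 18 endothelial markers were higher (325 to 400 CPM against 121 to 145 CPM). Of 15 tested hepatoblast markers 6 were lower and 2 higher. Within the E18.5 group replicate 1 was the highest for the lung epithelium sum, *Lama3*, *Lama5*, *Lamb3*, *Itgb6*, *Itga3*, *Itga6*, and *Itga7*, and the lowest for the hepatoblast sum, *Lama1*, *Itga5*, *Itgb5*, *Itga4*, and *Itga1*. The part of these markers in the age difference was not tested, and the labels give no second sorted population at E18.5.

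Proteins that activate integrins from inside the cell or tie them to actin were measured as a list of 32. In P2 against CD324+ cells 12 of 31 tested were higher and 14 lower (median log2 fold change 0.0024), near the 33.8% and 36.1% of all genes. *Apbb1ip* (RIAM, which brings talin to integrins) was at 191 against 20.6 CPM (log2 fold change 3.20 ± 0.23, edgeR adjusted p = 5.82e-07), *Ptk2b* (the kinase PYK2) at 93.6 against 14.5 CPM (log2 fold change 2.67 ± 0.19, edgeR adjusted p = 5.55e-07), and *Fermt3* (the hematopoietic kindlin) at 255 against 48.2 CPM (log2 fold change 2.39 ± 0.19, edgeR adjusted p = 1.33e-06). *Apbb1ip* and *Fermt3* are in the list the study drew from these samples, so their direction is not independent evidence. The other direction was led by *Fermt2*, the kindlin of adherent cells, at 10.4 against 189 CPM (log2 fold change -4.20 ± 0.33, edgeR adjusted p = 1.19e-06), and *Actn1* at 11.7 against 206 CPM. Against CD31+ cells 3 were higher in P2 cells (*Apbb1ip*, *Ptk2b*, and *Fermt3*) and 23 lower, with a median of -1.37, where 34.3% and 39.4% of all genes were. CD31+ against CD324+ cells gave 24 higher and 2 lower (*Tln2* and *Src*) with a median of 1.15 (all genes 31.7% and 34%), and E18.5 against E14.5 gave 18 higher and 4 lower of 32 with a median of 0.56 (all genes 35.9% and 33.5%).

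Of 26 other integrin ligands 24 were found by name. In P2 against CD324+ cells 3 of 23 tested were higher and 16 lower (median log2 fold change -2.22, all genes 33.8% and 36.1%), the largest falls being the fibrinogen chain *Fgb* at 26.4 against 3339 CPM and vitronectin, *Vtn*, at 11.5 against 1340.0 CPM. In P2 against CD31+ cells 0 were higher by edgeR and 17 lower (median -1.11, all genes 34.3% and 39.4%), with *Vcam1*, the counter-receptor of α4β1, at 4.27 against 91.4 CPM (log2 fold change -4.43 ± 0.20, edgeR adjusted p = 5.33e-08). CD31+ against CD324+ cells gave 8 higher and 14 lower (median -1.07, all genes 31.7% and 34%), led by *Icam2* (228 against 1.67 CPM) and *Vtn* (14.5 against 1340.0 CPM). At E18.5 13 of 22 were higher than at E14.5 and 2 lower (median 0.85, all genes 35.9% and 33.5%). *Npnt*, the ligand of α8β1, was at 462 against 7.77 CPM (log2 fold change 6.09 ± 0.31, edgeR adjusted p = 2.06e-05), *Spp1* at 168 against 2.92 CPM, and *Vcam1*, 1 of the 2 that fell, at 53.6 against 254 CPM (log2 fold change -2.07 ± 0.51, edgeR adjusted p = 0.00993).

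Of 22 other basement membrane genes, 1 was higher and 13 lower in P2 than in CD324+ cells (median log2 fold change -2.50, all genes 33.8% and 36.1%). The exception was *Ntn4*, a laminin-related netrin, at 20.9 against 3.9 CPM (log2 fold change 2.40 ± 0.10, edgeR adjusted p = 1.07e-08). Against CD31+ cells 0 were higher by edgeR and 17 lower (median -2.71, all genes 34.3% and 39.4%). CD31+ against CD324+ cells gave 9 higher (median 0.10, all genes 31.7% higher and 34% lower), led by *Pxdn* (459 against 7.61 CPM), *Sparc* (1168 against 25.6 CPM), and *Col4a2* (923 against 23.3 CPM), and 6 lower, led by *Smoc1* (5.7 against 207 CPM). At E18.5 17 were higher and 4 lower than at E14.5, with a median log2 fold change of 3.36 (all genes 35.9% and 33.5%). The collagen IV chains *Col4a4* (408 against 0.494 CPM) and *Col4a3* (321 against 0.886 CPM) had the largest rises, while the nidogens *Nid1* and *Nid2*, which join laminin to collagen IV, were among the 4 that fell, *Nid2* at 46 against 116 CPM (log2 fold change -1.15 ± 0.083, edgeR adjusted p = 5.39e-05).

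Among 12 other laminin receptors and tetraspanin partners, 4 were higher and 7 lower in P2 than in CD324+ cells (median -0.67, all genes 33.8% and 36.1%), *Cd44* being higher (log2 fold change 0.77 ± 0.20, edgeR adjusted p = 0.00559) and the tetraspanin *Cd9* lower (log2 fold change -4.31 ± 0.26, edgeR adjusted p = 1.75e-07). Against CD31+ cells 2 were higher and 8 lower (median -2.24, all genes 34.3% and 39.4%). CD31+ against CD324+ cells gave 5 higher, led by *Mcam* (CD146) at 313 against 2 CPM, and 7 lower (median -0.57, all genes 31.7% and 34%). At E18.5 6 were higher and 2 lower (median 0.37, all genes 35.9% and 33.5%). *Bcam*, a laminin α5 receptor, was at 431 against 23.5 CPM (log2 fold change 4.39 ± 0.33, edgeR adjusted p = 5.94e-05), and dystroglycan, *Dag1*, at 841 against 252 CPM (log2 fold change 1.93 ± 0.25, edgeR adjusted p = 0.000579).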

How the data were processed

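RNA from 12 libraries of sorted FL cells was analysed. The authors trimmed reads (cutadapt 1.11), aligned them to GRCm38 with STAR 2.5.0a, and counted reads per gene with featureCounts 1.4.6-p3. Strand use and the treatment of reads with several alignments are not given in the sources used here. The deposited files hold raw counts and a score, the count times 1 factor per library rounded, made with DESeq2 by the authors. The counts were used for all tests and the score only for the authors' factors.

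Genes were matched by identifier to GENCODE vM21 (37932 of 38127 found). EdgeR 4.0.16 in R 4.3.3 was run with TMM scaling, filterByExpr, and the quasi-likelihood test, adjusted by Benjamini-Hochberg over all genes, with a threshold of 0.05. A first fit held the 9 libraries of E14.5, another the 6 of CD54+CD31- cells. Fold changes therefore use the scaling of their own fit, and CPM that of all 12 libraries. RPKM divides CPM by the union of annotated exons. DESeq2 1.42.0, other scalings and filters, the replicate block, and each library left out were alternatives. Scripts were tested on simulated data. No libraries were duplicates.

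Members and lists were chosen with earlier results of these data known. Values per library are given for members past the threshold, without overlap, and at 5 CPM or more in the higher group, up to 6 per direction and comparison, with their partners, and of other lists for at most 3 called genes per direction with the largest changes, beside the genes the text singles out after their values were seen (*Cd44*, *Dag1*, and *Nid1* among them). Same-numbered libraries deviated together in CD31+ and CD324+ cells (correlations of 0.33, 0.26, and 0.12), so the numbers may pair these. In P2 and CD31+ cells the correlations were 0.015, 0.077, and 0.34 in replicates 1, 2, and 3. The main tests held no replicate block, so their p-values treat all libraries as unpaired and measure the spread between libraries. No protein sequence was used here. The values of 1 member are not reported here, although counts and summed levels include it.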

Additional observations from a re-analysis of the deposited data

How the results depend on the processing

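Depth limits little here, since 3 counts correspond to 0.0388 to 0.0944 CPM, and 3 libraries per group limit the precision. The direction of 8 member differences, none of them called with the main settings, turned under an alternative. When 1 library was left out at a time, the log2 fold change of *Lama2* ranged from -1.30 to 0.58 and that of *Itga2b* from -0.12 to 0.65 in P2 against CD324+ cells, and that of *Itga11* from -0.23 to 0.035 (0.019 without CD31+ replicate 1) in P2 against CD31+ cells. In CD31+ against CD324+ cells *Lama2* ranged from -0.54 to 1.28 (0.16 without CD31+ replicate 1), and was 0.039 with the authors' factors and 0.20 with the replicate block, while *Itga4* ranged from -0.26 to 0.13 and was 0.0039 with DESeq2 size factors, 0.081 with the authors' factors, and 0.015 with 10 counts in every library. At E18.5 *Itgb2* ranged from -0.54 to 0.13, *Itgae* from -0.23 to 0.18 (0.16 with the authors' factors and 0.079 with 10 counts in every library), and *Itga1* from -0.29 to 0.17 (0.16 and 0.074). The cause was not tested.

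Counts of members called stayed within 1.5 times of the main count, except 5 lower at E18.5 in place of 3 with all 12 libraries in 1 fit. Without 1 library each they ranged from 4 to 7 higher and 15 to 19 lower in P2 against CD324+ cells, 1 higher and 24 to 25 lower in P2 against CD31+ cells, 14 to 16 higher and 6 lower in CD31+ against CD324+ cells, and 21 to 23 higher and 2 to 4 lower at E18.5. With the replicate block, the higher and lower counts were 8 and 17, 1 and 24, 17 and 6, and 22 and 4. In CD31+ against CD324+ cells, whose same-numbered libraries deviated together, the block removed the call of *Itgb7* and of no other member. With the longest annotated transcript as length, *Itga5* held 47.3% of the α RPKM in CD324+ and 20.9% in CD31+ cells, *Itga9* 26.7% at E18.5, and *Lama4* 89.8% of the laminin α RPKM in CD31+ cells. By that length *Itga6* and α6β1 stood above *Itga5* and α5β1 in CD31+ cells, so the leading gene and pair there depend on the length used.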

Other observations

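Some limits hold for all values above. The E18.5 libraries carry lung epithelium and mesothelial markers in amounts that differ between replicates, and only 1 gate was sequenced at that age, so age and cell makeup cannot be told apart. Levels of mRNA do not measure protein, pairing, or secretion, and the lower RPKM of a pair or trimer is a description. Most genes passed the test in each comparison, and the share of members that passed lay near that of all genes.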
